A study of Mus musculus with 6 samples.

Results

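The genes described here encode proteins of the lysosome and a few close partners, and were taken as a list of 35 gene symbols that covers proteases, glycosidases, sulfatases, lipid hydrolases, membrane proteins and 3 other proteins. Every peak whose gene name was on the list was used. Of the 35 genes, 28 had at least 1 tested peak, with 164 peaks in all among the 55449 peaks and 10818 named genes of the series. Ctsf, Cd63, Cln3, Neu1, Manba, Galns and Arsa had no peak in the table and were not tested. Binding was measured by eCLIP. In this assay ultraviolet light couples proteins to the RNA they touch and an antibody then recovers the protein with its RNA fragments. All 6 libraries came from MLTC-1, a mouse Leydig tumour cell line, irradiated at 254 nm with 400 mJ per cm2. The groups were ZFP36L2 antibody (2 immunoprecipitation and 2 input libraries) and rabbit IgG, the negative control antibody (1 immunoprecipitation and 1 input library).

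Lysosomes are acidic organelles in which hydrolases break down proteins, sugars and lipids. Most of these enzymes are made in the endoplasmic reticulum, tagged with mannose 6-phosphate and carried to the lysosome, while heavily glycosylated proteins such as LAMP1 and LAMP2 line its membrane. The transcription factor TFEB raises many of these genes together through the CLEAR element, whose core is an E-box. Steroid-producing cells use lysosomes to free cholesterol from lipoproteins. ZFP36L2 is a CCCH zinc finger protein that binds AU-rich stretches of mRNA and promotes decay of the message.

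The promoter core is shown because it is the sequence best known to be shared by lysosomal genes; the peaks themselves lay in no sequence window used here, so their bases are not printed. RefSeq promoter windows (GRCm38.p6, 250 bases before to 50 after each start, on the gene's strand) were found for 30 of the 35 genes, in 35 windows since some genes have several starts. Asah1, Clu, Ctsb, Ctsh and Galns were not matched. The palindrome CACGTG, which reads the same on both strands, occurred in 12 of these 35 windows, each of a different gene, and in 7.15% of all 32851 promoter windows of the same length. The longer TCACGTGA, which contains it, occurred in 5 of the 35 and in 0.974% of all. Among genes with a called peak (the call is defined below), Lamp1, with 4 copies, Ctsd and Ctsl held the core and are shown. Ctsa, Mcoln1, Gla, Glb1, Gaa and Sgsh, with peaks but none called, and Cln3, Arsa and Ctsf, with no peak, held it too. Ctsd held copies at -245 and -98 from its start, of which the one at -98 is shown. The Ctsl copy lies at -236 from 1 of its starts but inside the RefSeq span of the gene. The core is in capitals in these 30-base windows, at chr8:13159088-13159117 (plus strand), chr7:142387908-142387937 (minus) and chr13:64370739-64370768 (minus).
Lamp1: agggcaagatatCACGTGgtccagcgccca
Ctsd: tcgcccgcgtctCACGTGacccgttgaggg
Ctsl: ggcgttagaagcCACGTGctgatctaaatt
The match describes the letters of these windows only, and eCLIP measured RNA, not promoters.

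Setting ZFP36L2 against IgG addresses which sites on these transcripts the ZFP36L2 antibody recovered over the control. Among lysosomal protein genes, peaks called higher with ZFP36L2 lay in 7 messages, those of the cathepsins Ctsb, Ctsd and Ctsl, the prosaposin gene Psap, the lysozyme gene Lyz2, the sulfatase gene Arsb and the clusterin gene Clu. Of the 11 peaks called lower, 8 lay in the message of the membrane protein gene Lamp1, and Lamp2, Hexa and Ctsb had 1 each. A peak was called enriched when its log2 fold change (ZFP36L2 over IgG) was 1 or more with an adjusted p below 0.05, and depleted when it was -1 or less at that adjusted p. By this rule 15 of the 164 peaks (9.15%) were enriched, beside 2.22% of all peaks, and 11 (6.71%) were depleted, beside 5.44% of all peaks. By gene, 7 of 28 (25%) had an enriched peak, beside 5.04% of all genes with a peak, and 4 (14.3%) had a depleted one, beside 17.3%. The depleted share was thus close to that of all genes. The shares by gene make no allowance for peak number, and a gene with more peaks has more chances of a call. The median was 3 peaks per gene over all genes and 4.5 over the lysosomal protein genes. These genes were listed with results of the same data known, Ctsl, Lyz2 and Clu among them, so the enriched share was not tested. Without these 3 genes, 4 genes had an enriched peak.

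**Figure D1:**
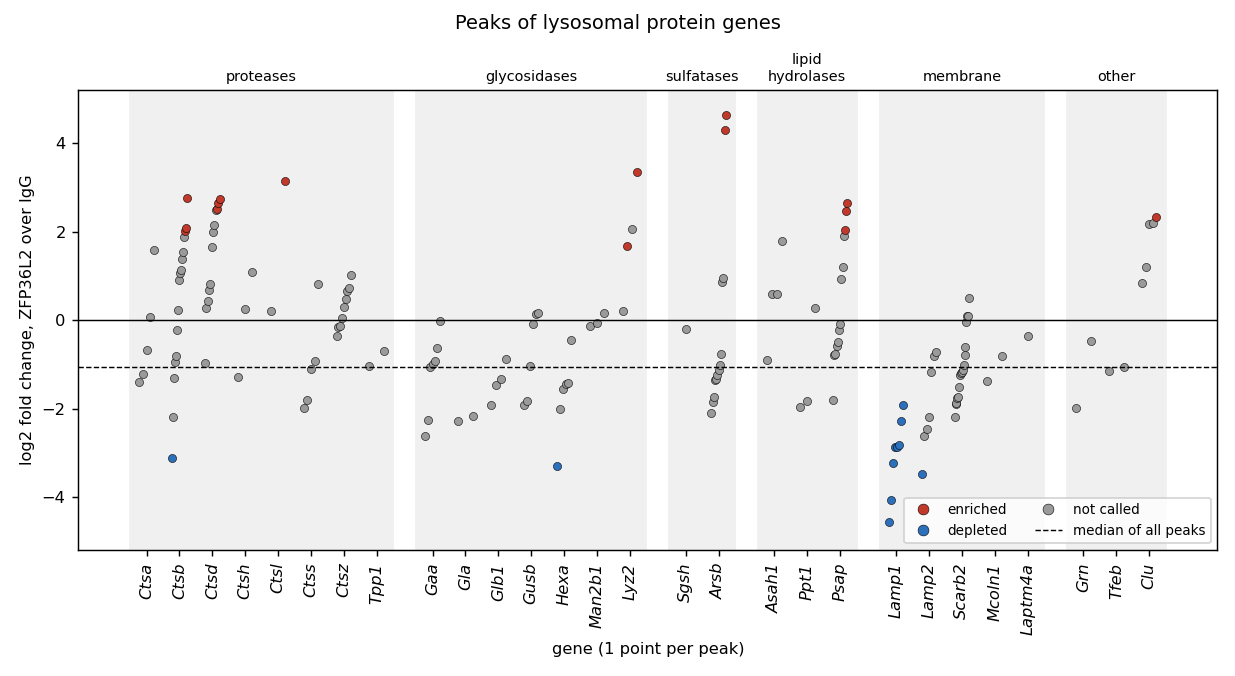
Each point is 1 peak of a lysosomal protein gene, with its log2 fold change of ZFP36L2 over IgG on the vertical axis and genes grouped by role on the horizontal axis. Red points were enriched, blue points depleted, grey points not called, and the dashed line is the median of all peaks (-1.06). The 8 Lamp1 points all lie below the dashed line, and the highest points belong to Arsb.

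The table gives 1 log2 fold change per peak and no column for any library, so values per library, read depths and standard errors cannot be shown, and the direction follows the name of the table. The IgG arm has 1 immunoprecipitation library, so antibody and library cannot be told apart in any call below. The labels do not say that the libraries came from separate cultures. The zero of the scale also matters. The median over all peaks was -1.06 and 23.6% of all values lay above 0, whereas the 164 peaks had a median of -0.655 (quartiles -1.43 and 0.75) with 63 (38.4%) above 0. A value slightly below 0 is therefore ordinary in this table.

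Several cathepsin messages carried enriched peaks. Cathepsins are the main lysosomal proteases, and Ctsb encodes cathepsin B, a cysteine protease. Ctsb (chromosome 14, 63122462 to 63145923, mm10) had 16 peaks, of which 3 were enriched and 1 depleted. The authors' deposited table gave the enriched peaks log2 fold changes of 2.01 in coding sequence, 2.77 in the adjoining part of the 3′ UTR and 2.09 further along the 3′ UTR. The first of these, at 63142327 to 63142421, and the second, at 63142422 to 63142516, touch each other, and their adjusted p-values in the authors' deposited table were 3.9e-05 and 9.3e-11. The third, at 63142817 to 63142892, had an adjusted p of 0.0093 there.

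The depleted Ctsb peak lay downstream in the same 3′ UTR. It covered 13 nucleotides at 63144401 to 63144413, and the authors' deposited table gave it a log2 fold change of -3.12 with an adjusted p of 0.005. A distance of 1508 nucleotides separated it from the last enriched peak, and the values of these 2 called peaks differed by 5.21. That stretch was not free of peaks. An uncalled peak at 63144351 to 63144400, with -0.95 in the authors' deposited table, lay in it and touched the depleted one. One gene thus held calls in both directions within a single 3′ UTR. Across the table, 107 genes (0.989%) held both an enriched and a depleted peak, and among the 28 lysosomal protein genes Ctsb was the only one. That share also counts genes with 1 peak, which cannot hold both calls, whereas Ctsb had 16 peaks. All 4 intronic Ctsb peaks had values above 0, from 0.22 to 1.87 in the authors' deposited table, and none was called.

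Ctsd encodes cathepsin D, the main aspartic protease of lysosomes. Of its 12 peaks in the authors' deposited table, 11 had values above 0, and the median was 1.83. The 3 enriched peaks were the 3′ UTR peaks at 142376009 to 142376086 (2.64, adjusted p = 0.039) and 142376382 to 142376418 (2.73, adjusted p = 0.017) and the coding peak at 142377365 to 142377398 on chromosome 7 (2.52, adjusted p = 0.032), per the authors' deposited table. The 6 peaks of the 3′ UTR ranged from 0.43 to 2.73 and the 6 coding peaks from -0.96 to 2.52 in the authors' deposited table. The lowest, at -0.96, was a peak 1 nucleotide long and the one nearest the 5′ end of the gene. The other 5 coding peaks, the enriched one included, carry a second gene name, Gm49369, so their reads cannot be assigned to Ctsd alone.

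Ctsl, the gene of the cysteine protease cathepsin L, had 2 peaks. Its coding peak, 79 nucleotides at 64364124 to 64364202 on chromosome 13, was enriched at 3.14 (adjusted p = 3.8e-05), and its 5′ UTR peak had 0.21 and was not called, per the authors' deposited table. The other proteases had no called peak. Ctsz, for the carboxypeptidase cathepsin Z, had 9 peaks within a narrow band from -0.36 to 1.01 in the authors' deposited table. Ctss, for cathepsin S of antigen-presenting cells, had 5 coding peaks from -1.98 to 0.81, with a median of -1.10 near that of all peaks, per the authors' deposited table. Ctsa (5 peaks, -1.41 to 1.59), Ctsh (3 peaks, -1.28 to 1.09) and Tpp1 (2 peaks, -1.04 and -0.71), which encode a carboxypeptidase, an aminopeptidase and a tripeptidyl peptidase, completed the group in the authors' deposited table. Over the 8 tested proteases, 34 of 54 peaks had values above 0 and the median was 0.36. Of these 34, 10 lay in Ctsb and 11 in Ctsd, the proteases with the most peaks, so the group values rest largely on these genes.

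Prosaposin is the precursor of the saposins, small activators that present sphingolipids to lysosomal hydrolases. Its gene Psap (chromosome 10, 60277628 to 60302600) had 13 peaks, and the coding values lay apart from the intronic ones. The 4 coding peaks ranged from 0.93 to 2.64, the 3 peaks of the 3′ UTR from -0.78 to 1.91 and the 6 intronic peaks from -1.81 to -0.08 in the authors' deposited table. Every coding peak was thus above every intronic one, while the range of the 3′ UTR peaks overlapped both. The 3 enriched peaks were all coding, at 60299098 to 60299116 (2.64, adjusted p = 0.026), 60299129 to 60299222 (2.04, adjusted p = 0.0011) and 60301728 to 60301765 (2.46, adjusted p = 0.005), per the authors' deposited table. Ctsb, Ctsd and Psap were the 3 lysosomal protein genes with at least 3 enriched peaks, a count reached by 98 genes (0.906%) of the whole table. That share is over all genes, also those with fewer than 3 peaks, whereas Ctsb, Ctsd and Psap had 16, 12 and 13 peaks.

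The other lipid and thioester hydrolases had no called peak. Asah1, for acid ceramidase, had 4 intronic peaks at -0.90, 0.58, 0.58 and 1.78 in the authors' deposited table. Ppt1, which encodes palmitoyl-protein thioesterase, had peaks at -1.82 in coding sequence and at 0.27 and -1.96 in the 3′ UTR, per the authors' deposited table.

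**Figure D2:**
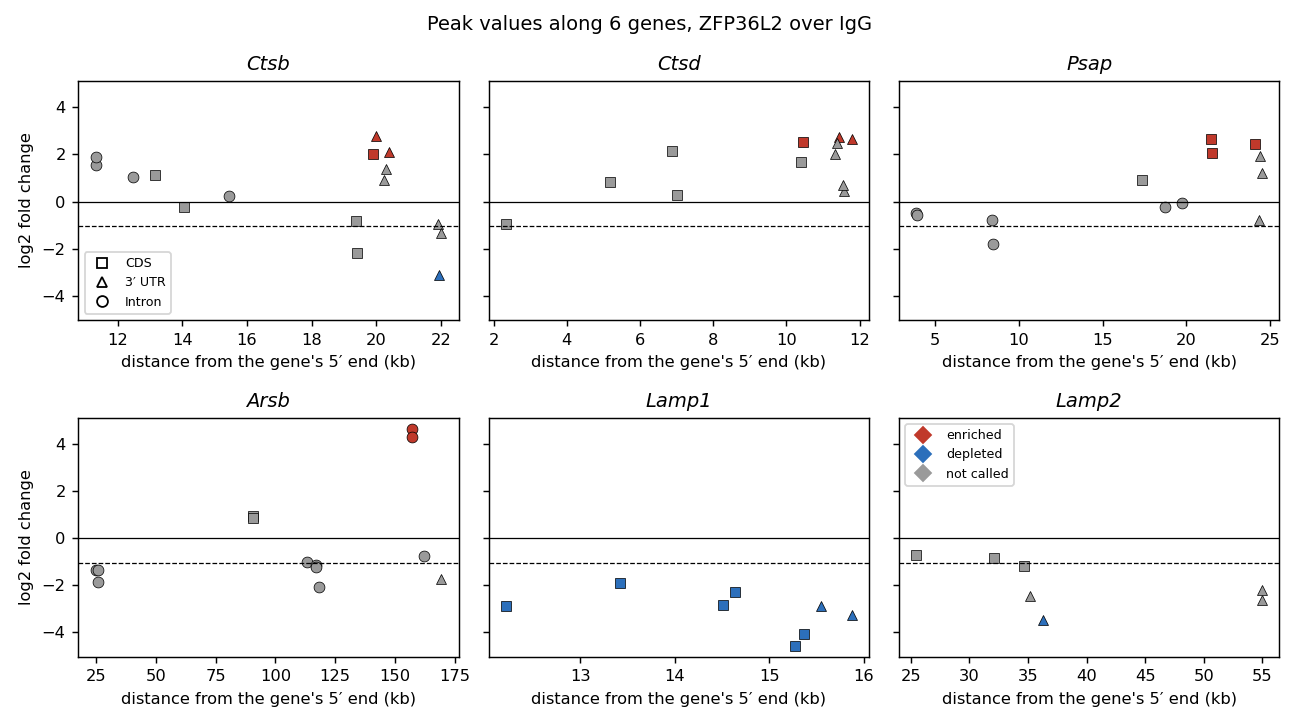
Log2 fold change of each peak (vertical axis) against its distance in kb from the 5′ end of the RefSeq gene (horizontal axis) for 6 genes, with squares for coding peaks, triangles for 3′ UTR peaks and circles for intronic peaks, coloured by call. The solid line marks 0 and the dashed line the median of all peaks (-1.06). Ctsb shows enriched peaks (up to 2.77) followed by a depleted one (-3.12) further downstream, Psap shows its coding peaks above its intronic ones, and all Lamp1 peaks are depleted.

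Among the sulfatases, Arsb, which encodes arylsulfatase B of dermatan sulfate breakdown, held the highest values among the 28 tested genes. The authors' deposited table gave a touching pair of intronic peaks, at 93928618 to 93928690 and 93928691 to 93928716 on chromosome 13, values of 4.65 (adjusted p = 8.3e-11) and 4.29 (adjusted p = 6.3e-07). Together they form 1 stretch of 99 nucleotides, and RefSeq lists no other gene there. By log2 fold change they ranked 190 and 278 of all 55449 peaks. The remaining 11 Arsb peaks were not called. They comprised 8 intronic peaks, all below 0, 2 touching coding peaks at 0.95 and 0.86 and 1 peak of the 3′ UTR at -1.74 in the authors' deposited table. The median over all 13 peaks was -1.12, and the enriched calls were limited to that stretch. Sgsh, for the heparan sulfatase sulfamidase, had 1 peak, at -0.19 in the authors' deposited table.

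Lyz2 encodes the lysozyme of macrophages, which cleaves bacterial cell walls. All 4 Lyz2 peaks lay in the 3′ UTR within 117277667 to 117277944 on chromosome 10, with values of 3.34, 1.67, 2.06 and 0.21 per the authors' deposited table, counted from the 3′ end of this minus-strand gene. The first, of 19 nucleotides (adjusted p = 0.00014), and the second, of 86 (adjusted p = 0.034), were enriched in the authors' deposited table. The third had an adjusted p of 0.18 there. Lyz1, a neighbouring and closely similar gene, had 0 peaks, and the sources used here do not give how reads shared by the pair were assigned.

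The remaining glycosidases, which trim sugars from glycoproteins and glycolipids, had 1 called peak between them. It was a coding peak of Hexa, the gene of the alpha subunit of beta-hexosaminidase, at 59564869 to 59564932 on chromosome 9, with -3.29 (adjusted p = 0.011) per the authors' deposited table. The other 5 Hexa peaks, all coding, ranged from -2.02 to -0.46 in the authors' deposited table and were not called. Gaa, for acid alpha-glucosidase, had 7 coding peaks, all below 0 and down to -2.62, the lowest with an adjusted p of 0.13 in the authors' deposited table. Glb1 (4 peaks, -1.92 to -0.88) and Gla (2 touching intronic peaks, -2.29 and -2.16), for beta-galactosidase and alpha-galactosidase, were also below 0 throughout the authors' deposited table. Gusb (6 peaks, -1.93 to 0.17) and Man2b1 (3 peaks, -0.13 to 0.17), for beta-glucuronidase and an alpha-mannosidase, had values on both sides of 0 in the authors' deposited table.

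Among the 5 tested genes for lysosomal membrane proteins, Lamp1 and Lamp2 had depleted peaks and Scarb2, Mcoln1 and Laptm4a had none called. Lamp1 encodes an abundant glycoprotein of the lysosomal membrane, and all 8 of its peaks were depleted. In order along the gene, the authors' deposited table gave the 6 coding peaks values of -2.88, -1.92, -2.82, -2.28, -4.57 and -4.07. The 2 peaks of the 3′ UTR followed with -2.88 and -3.24, per the authors' deposited table. The adjusted p-values ran from 5.2e-08 to 0.036 there. The peaks spread over 3674 nucleotides of chromosome 8, from 13171371 to 13175044, and did not touch one another. The peaks at 13174431 (-4.57) and at 13174527 to 13174528 (-4.07), with the lowest Lamp1 values in the authors' deposited table, were 1 and 2 nucleotides long. Of the 187 peaks of at most 2 nucleotides in the whole table, 7 (3.74%) were depleted. Without peaks shorter than 10 nucleotides, a setting chosen after the values were seen, 8 of the 11 depleted peaks remained in the count. All those lost were Lamp1 peaks, namely these 2 and the peak of 9 nucleotides at 13171371 to 13171379 (-2.88 in the authors' deposited table).

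A gene whose peaks were all depleted was uncommon. Of the 2057 genes with at least 8 peaks, 4 (0.194%) had every peak depleted, namely Lamp1, Klhdc3, Srf and Slc4a2. At least 8 depleted peaks occurred in 10 genes of the table (0.0924% of all genes with a peak, also those with fewer than 8 peaks). Lamp1 was singled out after its values were seen. Measured from the median of all peaks instead of 0, the peak at -1.92 became -0.86 and missed the size threshold, which left 7 of 8. Without Lamp1, 3 depleted peaks remained among lysosomal protein genes.

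Lamp2, whose alternative last exons give isoforms with different tails, had 7 peaks, all below 0. The 3 coding peaks ranged from -1.18 to -0.72 and the 4 peaks of the 3′ UTR from -3.49 to -2.19 in the authors' deposited table, so every 3′ UTR peak was lower than every coding peak. The depleted one lay at 38420126 to 38420196 on chromosome X (-3.49, adjusted p = 0.0035), per the authors' deposited table.

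Scarb2 encodes LIMP-2, the receptor that carries beta-glucocerebrosidase to lysosomes, and had more peaks than any other gene of the list. Its 17 peaks ranged from -2.19 to 0.50 per the authors' deposited table, with a median of -1.17 close to that of all peaks, and none was called. The calcium channel gene Mcoln1 had 2 intronic peaks at -1.38 and -0.81, and Laptm4a had 1 peak of the 3′ UTR at -0.37 in the authors' deposited table. Over the 5 tested membrane protein genes, 0 of 35 peaks were enriched, 9 were depleted and 3 were above 0. At an unadjusted p under 0.05, 0 of the 35 had a positive value and 10 a negative one, all 10 in Lamp1 and Lamp2. Among all 55449 peaks, 1630 had a positive value at that p and 6189 a negative one. Positive values were thus rare in the whole table, and 35 peaks are too few for 0 of them to stand out. Over the other 23 tested genes, 15 of 129 peaks were enriched and 2 depleted. The difference between the 2 kinds of message was not tested, and 8 of the 9 depleted peaks were those of Lamp1. The split was not seen in the further lists described below, where 0 of 26 genes for other hydrolases and cofactors had an enriched peak and 6 (23.1%) a depleted one, beside 0 and 4 of 23 (17.4%) for other membrane proteins and transporters.

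Clu encodes clusterin, a chaperone that is secreted and also reaches lysosomes, and is listed here although it is no lysosomal hydrolase. All 5 Clu peaks were above 0, with values of 1.19, 2.18, 2.19, 2.34 and 0.84 from the 5′ to the 3′ end in the authors' deposited table. The coding peak at 65981313 to 65981344 on chromosome 14 was enriched (adjusted p = 0.012, per the authors' deposited table). The pair of short intronic peaks, with adjusted p-values of 0.098 and 0.083 per the authors' deposited table, was not called. Grn, for progranulin, had 2 coding peaks at -1.98 and -0.47, and Tfeb itself had 2 touching intronic peaks at -1.15 and -1.07, none called, in the authors' deposited table.

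**Figure D3:**
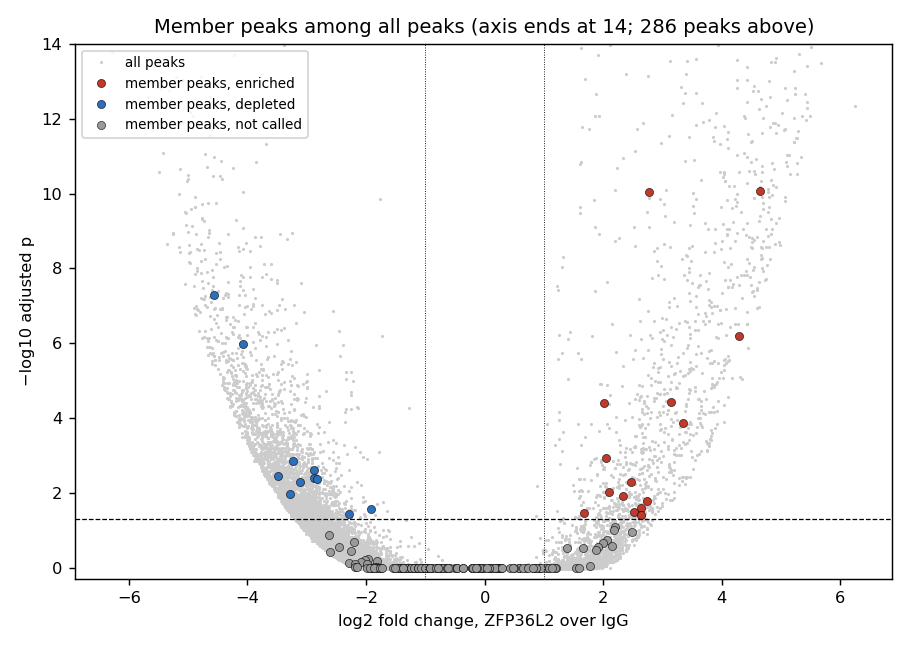
Log2 fold change (horizontal axis) and −log10 adjusted p (vertical axis) of all peaks in light grey and of the peaks of lysosomal protein genes in red (enriched), blue (depleted) or dark grey (not called). The dashed line marks an adjusted p of 0.05 and the dotted lines a log2 fold change of 1 in either direction; the axis ends at 14, and 286 peaks lie above it. The 15 enriched peaks lie between 1.67 and 4.65 and the 11 depleted ones between -4.57 and -1.92.

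The called peaks were of moderate size within the table. In the authors' deposited table, the median log2 fold change was 2.64 for the 15 enriched peaks, beside 3.27 for all enriched peaks, and -3.12 for the 11 depleted ones, beside -3.31. Ordered by p-value among the 1231 enriched peaks of the table, the best of Arsb and Ctsb ranked 394 and 396, and those of Ctsl, Lyz2 and Psap 749, 800 and 914. The best peaks of Clu and Ctsd ranked 1073 and 1099. Among the 3019 depleted peaks, the 2 lowest of Lamp1 ranked 169 and 272.

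By transcript region, these messages had more exonic and fewer intronic peaks than the table as a whole. Coding sequence held 77 peaks (47%, beside 37% of all peaks), 3′ UTRs 37 (22.6%, beside 13.6%), introns 49 (29.9%, beside 42.3%) and the 5′ UTR 1. In 3′ UTRs 6 of 37 peaks were enriched, beside 1.46% of all 3′ UTR peaks, and 4 were depleted, beside 4.83%. In coding sequence 7 of 77 were enriched, beside 2.35% of all coding peaks, and 7 were depleted, beside 3.74%. In introns 2 of 49 were enriched, beside 2.17%, and 0 were depleted, beside 7.04%, also with 0 at an unadjusted p under 0.05 and a negative value. The 6 enriched 3′ UTR peaks came from 3 genes, Ctsb, Ctsd and Lyz2. Of the 7 depleted coding peaks, 6 lay in Lamp1 and 1 in Hexa. Of the 4 depleted 3′ UTR peaks, 2 lay in Lamp1, 1 in Lamp2 and 1 in Ctsb.

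The median log2 fold change in 3′ UTRs was 0.21 for lysosomal protein genes and -1.08 for all peaks, while in coding sequence both were -0.72. In introns the medians were -0.77 and -1.31. Of the 37 peaks of the 3′ UTR, 19 were above 0, and 16 of these 19 lay in Ctsb, Ctsd, Lyz2 and Psap, which are named here after their values were seen. Those genes held 20 of the 37 peaks. Of the 17 3′ UTR peaks of the other lysosomal protein genes, 3 were above 0.

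**Figure D4:**
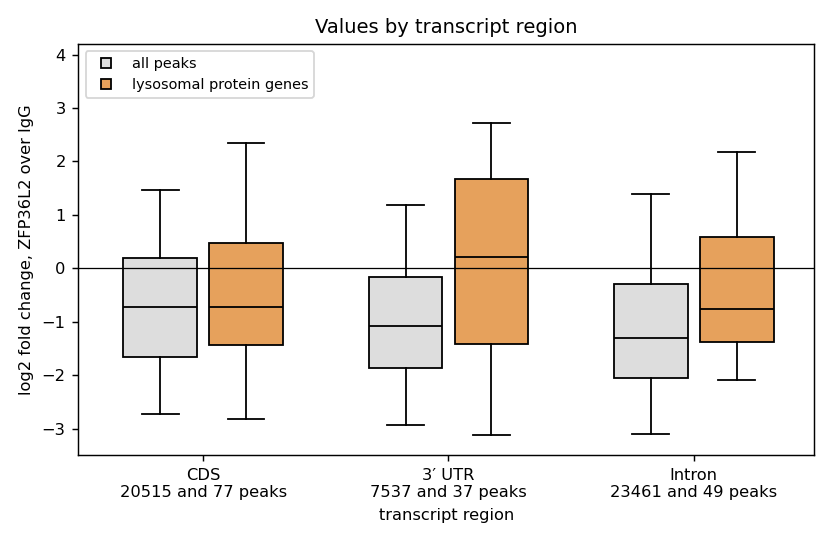
Log2 fold changes of ZFP36L2 over IgG by transcript region, for all peaks (grey) and for the peaks of lysosomal protein genes (orange); boxes span the quartiles with the median as a line, and whiskers reach the 5th and 95th percentiles. The medians coincide in coding sequence (-0.72) and differ in 3′ UTRs (0.21 and -1.08).

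Other genes of the lysosome were taken from 6 further lists that share no gene with the first. Their counts at an unadjusted p under 0.05 stand beside 1630 positive and 6189 negative values at that p among all 55449 peaks. None of 26 tested genes for other hydrolases and their cofactors had an enriched peak (0 of 113 peaks at an unadjusted p under 0.05 with a positive value), and 6 had a depleted peak. They included Arsg, a sulfatase (-4.07, adjusted p = 1.7e-08), Acp2, an acid phosphatase (-3.70, adjusted p = 0.0023), Sumf1, the activator of sulfatases (-3.36, adjusted p = 0.0056), and Fuca1, a fucosidase (-3.58, adjusted p = 0.006), in the authors' deposited table. Of 23 tested genes for other membrane proteins and transporters, 0 had an enriched peak (0 of 106 peaks at an unadjusted p under 0.05 with a positive value) and 4 a depleted one. These were the channel gene Tpcn2 (-3.40), the chloride transporter gene Clcn7 (-3.33), the lipid transporter gene Abca2 (-3.36) and the iron transporter gene Slc11a2 (-2.48), per the authors' deposited table.

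The proton pump acidifies the lysosome, and 1 of its 15 tested genes had enriched peaks. Atp6v1e1, a stalk subunit, was enriched in 5 of 11 peaks, the best at 1.90 (adjusted p = 0.0032) per the authors' deposited table, and 0 pump genes had a depleted peak (6 of 66 peaks had an unadjusted p under 0.05 with a negative value). Among 24 tested genes of enzyme sorting, Igf2r, the large mannose 6-phosphate receptor, had 1 enriched peak of 20 (2.7, adjusted p = 0.00033), and Ap3d1, a subunit of the AP-3 adaptor, had 4 of 12 (best 3.41, adjusted p = 4.6e-09), per the authors' deposited table. Another 4 sorting genes, Gga2, Cltc, Ap3b1 and Gnptg, had a depleted peak.

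In fusion and tethering, 1 of 19 tested genes had an enriched peak, the SNARE gene Vti1b (2.78, adjusted p = 0.00071, per the authors' deposited table), and Vps41, Stx7 and Vps33a had depleted ones. In control by TFEB and mTORC1, 0 of 18 tested genes had an enriched peak (0 of 148 peaks at an unadjusted p under 0.05 with a positive value) and 5 had depleted ones. They were Tsc2 (3 of 17 peaks, down to -4.34), Fnip2 (3 of 11, down to -4.31), Ppp3ca (4 of 25, down to -3.84), Rptor (1 of 24, at -3.67) and Zkscan3 (1 of 4, at -3.18) in the authors' deposited table. Over the 6 lists together, 4 of 125 tested genes (3.2%) had an enriched peak and 22 (17.6%) a depleted one, near the shares of all genes given above. The median of their 681 peaks was -1.19.

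**Figure D5:**
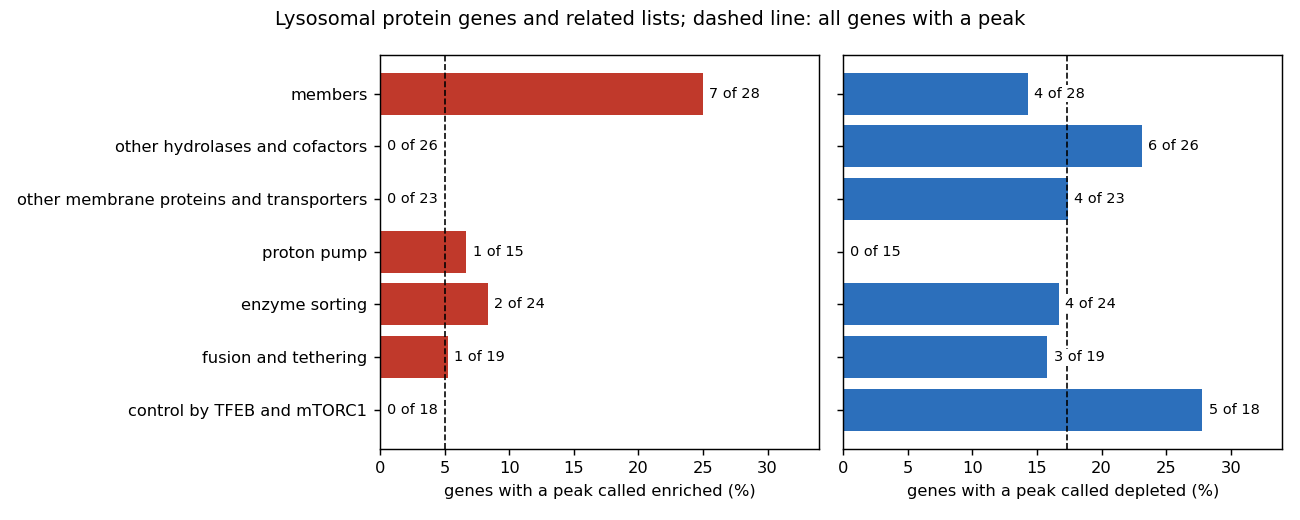
Percent of tested genes with an enriched peak (left) and with a depleted peak (right) in the lysosomal protein genes (members) and in 6 related lists, with the count of genes beside each bar. Dashed lines mark the share among all genes with a peak (5.04% and 17.3%). The lysosomal protein genes stand at 25% on the left, and on the right the bars run from 0 of 15 to 5 of 18.

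Some of these genes are also markers of other cells, so marker lists were read beside them. Lyz2 and Ctss count as macrophage markers, and 11 of 14 genes of that list had peaks, Cd68, Csf1r, Adgre1 and C1qb among them, while Tyrobp, Fcer1g and Aif1 had none. Lyz2 was the only one of the 11 with an enriched peak (9.09%, beside 5.04% of all genes with a peak). Adgre1 alone had a depleted one (9.09%, beside 17.3%). Clu and Ctsl are made by Sertoli cells as well, but of the 8 other Sertoli markers only Gata1 had peaks (6, none called). For the labelled Leydig identity, Cyp11a1, Star, Lhcgr, Nr5a1, Prlr and Scarb1 had peaks, and Hsd3b1, Hsd3b6, Cyp17a1 and Insl3 had none. Of the 93 peaks of the Leydig list 35 (37.6%) were enriched, beside 2.22% of all peaks, and 33 of the 35 lay in Cyp11a1. All 14 striated muscle markers had peaks, 812 in all, with 566 in Ttn and 117 in Ryr2. Of the 812 peaks 37 (4.56%) were enriched, beside 2.22% of all peaks. By gene, 8 (57.1%) had an enriched peak, beside 5.04% of all genes with a peak. The median was 9 peaks per gene in this list, beside 3 over all genes. RNA of other cell types was not tested as a part of any value above, and binding cannot be told apart from the amount of a transcript in these values.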

How the data were processed

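The authors deposited 1 table of peaks, and no values of single libraries were used. Its log2 fold changes of ZFP36L2 over IgG were used as deposited, and the −log10 p-values and adjusted p-values that the authors deposited were converted back. The tools named per the submitters' processing notes are STAR 2.7.7a, DESeq2 1.34.0, UMI-tools 1.1.1 and cutadapt 3.2, with build mm10. The sources used here do not give how peaks were called, how inputs were used or the role of each tool. A Benjamini-Hochberg adjustment recomputed over all peaks lay within 0.0099 of the deposited −log10 values. Depth per library is unknown.

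Peaks were matched by gene name, and those with several names (5 here) counted for each. All 164 peaks lay inside their RefSeq gene (GRCm38.p6, all 35 symbols matched). Shares and medians are descriptions beside those of all peaks, with no set test. The planned count test could not be applied to fold changes. Every listed gene was named, and of related lists up to 4 genes per direction by adjusted p, plus Zkscan3, named after its value was seen. Genes, lists and thresholds were chosen with earlier results of these data known. The adjustment and call rule were tested on simulated data. Analyses used Python 3.11.15, pandas 2.3.3 and scipy 1.17.1.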

Additional observations from a re-analysis of the deposited data

How the results depend on the processing

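The count of enriched peaks was 9 of the 15 at an adjusted p under 0.01 and stayed within 1.5 times of 15 under the other alternatives tried. The count of depleted peaks was 3 without Lamp1, and genes with an enriched peak numbered 4 without Ctsl, Lyz2 and Clu, both settings chosen after the data were seen. The median log2 fold change (-0.655, beside -1.06 for all peaks) was -0.772 with 1 median per gene (beside -1.27) and -1.095 with the best peak of each gene (beside -1.95). It was 0.405 after centring on all peaks and 0.41 after centring on each region. It was -0.71 without Clu and Tfeb, -0.47 without Scarb2, -0.485 without Lamp1 and -0.78 without Ctsl, Lyz2 and Clu. The best peak of each gene and direction kept its call in 11 of 11 cases after centring and after recomputing the adjustment. After centring, 25 of 26 called peaks kept their call. Centring raised every value and left the adjusted p-values as they were, so only a depleted call could be lost. The recomputed adjustment was nearly equal to the deposited one, so it could hardly change a call. No paired analysis was possible because the table has no library values, and for the same reason no library could be left out. Peaks without a deposited depth have no interval, and a peak that missed the threshold may still differ.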

Other observations

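Touching peaks of 1 gene are neighbouring pieces of the same RNA, so their values give a view of how finely the fold change varied along a message. Among lysosomal protein genes, 39 pairs of touching peaks had a median difference of 0.26 in log2 fold change, beside 0.28 over 14861 pairs in the whole table. In 6 of the 39 pairs (15.4%) the difference was 1 or more, beside 10.5% of all pairs. The largest was 2.17, in the 3′ UTR of Ctsb, where a peak of -0.95 at 63144351 to 63144400 adjoins the depleted one of -3.12. The enriched Lyz2 peak of 3.34 adjoins one of 1.67, and the enriched Clu peak of 2.34 adjoins one of 0.84. In Ctss, touching coding peaks had -0.93 and 0.81, on opposite sides of 0, and neither was called. These values are all from the authors' deposited table, and the sources used here do not give what sets the boundary between touching peaks.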
